A study of Mus musculus with 8 samples.

Results

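The genes described here are 8 genes of programmed cell death, namely Apaf1, Casp9, Xiap, Casp8, Ripk1, Ripk3, Mlkl and Parp1, of 22911 genes with a symbol on the array. They were chosen as every non-control probe whose RefSeq accession maps to a gene of this set, which gave 12 probes: 2 each for Apaf1, Casp9, Xiap and Ripk1, and 1 each for the others. Transcript levels were read with SurePrint G3 mouse microarrays, labelled in a single color, in photoreceptor cells taken from the mouse retina (strain label C57BL/6) at postnatal day 8, with 4 arrays labelled Lpcat1 HZ and 4 labelled Lpcat1 KO. Lpcat1 encodes an acyltransferase that makes phosphatidylcholine, KO mice lacked it in all tissues from the germline, and HZ mice, the control, carried a null allele beside an intact one. Per the study's methods, the KO line was on C57BL6/N, which carries the retinal degeneration mutation rd8, it was bred to C57BL6/J to remove rd8, and only mice not homozygous for rd8 were used. Retinas were dissociated with trypsin, and cells bearing CD73, a surface protein of rod precursors, were collected with an antibody and magnetic beads. The arrays labelled KO lay in row 1 of the slide and those labelled HZ in row 2, so the position on the slide and the genotype cannot be told apart. Nothing in the labels says whether replicates were separate animals, so the p-values measure only the spread between these samples, which may be technical, and the number of arrays limits the precision.

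Cells can die by apoptosis, in which Apaf1 bound to cytochrome c activates caspase-9, or in which death receptors activate caspase-8, and both routes lead to a cascade of caspases that Xiap binds and inhibits. When caspase-8 is not active, the kinases Ripk1 and Ripk3 can instead lead to necroptosis, in which Mlkl breaks the plasma membrane. Parp1 is a nuclear DNA repair enzyme that is cleaved in apoptosis, and degenerating photoreceptors are known to use more than a single one of these routes.

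Sequences around a listed transcript start are shown here for the pair of genes whose 2 groups of arrays were apart, Xiap and Parp1, and for a pair at or near background, Casp8 and Mlkl. Each is a RefSeq promoter window of GRCm38.p6 with 250 bases before and 50 after that start, written 5′ to 3′ on the strand of the gene, with every GC box (GGGCGG, or CCGCCC on the other strand) in capitals. The windows, for Xiap the most GC-rich of 3, are chrX:42068148-42068447 on the plus strand for Xiap, chr1:180568641-180568940 on the plus strand for Parp1, chr1:58802252-58802551 on the plus strand for Casp8 and chr8:111338156-111338455 on the minus strand for Mlkl. The windows of Xiap, Casp8 and Mlkl lie inside the listed bounds of these genes, so they do not show the outermost start. Those bounds begin at chrX:42059613 for Xiap and chr1:58795233 for Casp8, and reach chr8:111338479 for Mlkl.
Xiap: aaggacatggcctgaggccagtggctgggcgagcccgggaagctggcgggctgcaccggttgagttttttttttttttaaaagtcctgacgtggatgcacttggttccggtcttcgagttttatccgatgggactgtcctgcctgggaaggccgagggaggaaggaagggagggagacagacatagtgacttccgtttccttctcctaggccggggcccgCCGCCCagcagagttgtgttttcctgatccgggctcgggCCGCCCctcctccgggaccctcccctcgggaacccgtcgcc
Parp1: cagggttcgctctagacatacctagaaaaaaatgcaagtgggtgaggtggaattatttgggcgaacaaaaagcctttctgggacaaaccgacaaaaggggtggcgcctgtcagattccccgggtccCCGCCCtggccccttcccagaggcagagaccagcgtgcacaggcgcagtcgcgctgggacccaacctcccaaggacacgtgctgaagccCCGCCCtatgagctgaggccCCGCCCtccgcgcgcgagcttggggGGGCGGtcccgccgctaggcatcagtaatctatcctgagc
Casp8: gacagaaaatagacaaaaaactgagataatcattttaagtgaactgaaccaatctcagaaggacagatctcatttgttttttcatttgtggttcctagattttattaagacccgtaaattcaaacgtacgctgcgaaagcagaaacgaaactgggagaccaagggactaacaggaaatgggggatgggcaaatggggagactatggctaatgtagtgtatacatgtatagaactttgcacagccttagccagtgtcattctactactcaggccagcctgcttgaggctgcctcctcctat
Mlkl: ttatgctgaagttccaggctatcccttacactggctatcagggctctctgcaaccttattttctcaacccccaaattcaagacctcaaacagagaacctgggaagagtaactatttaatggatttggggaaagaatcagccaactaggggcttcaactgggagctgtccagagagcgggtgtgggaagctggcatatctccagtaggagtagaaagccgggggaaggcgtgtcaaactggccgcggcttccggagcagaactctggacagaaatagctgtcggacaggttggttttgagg

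The Parp1 window held 4 GC boxes and this Xiap window 2, against 0 in the Casp8 and Mlkl windows. Genes whose groups overlapped held as many: Casp9 4, Apaf1 3, and Ripk1 3 and 4 in its 2 windows. Ripk3, at background, held 1. GC made up 62.0% of the bases for Parp1 and 61.7% for this Xiap window, against 51.0% for Mlkl and 42.0% for Casp8. It was 66.0% for Casp9, 74.7% for Apaf1, 61.7% and 67.0% for Ripk1 and 52.7% for Ripk3. RefSeq lists 2 more Xiap windows, with 2 and 0 GC boxes and a GC content of 50% and 37.7%, so the Xiap windows span the values of Mlkl and Casp8. Over the 11 windows listed for the 8 genes, 8 windows of 6 genes held a GC box (Casp9, Apaf1, Xiap, Ripk1, Ripk3 and Parp1), as did 35.7% of 32851 windows of all genes. Across all genes with both a probe and a window, 80.1% of the 8885 genes with a GC box were well above background on all 8 arrays and 8.68% on 0 arrays. Of the 9192 genes without a GC box, 38.4% were well above background on all 8 arrays and 35.9% on 0. Apaf1, Casp9, Xiap, Ripk1 and Parp1 were well above background on all 8 arrays and have such a box, whereas Ripk3 has a box in its window and was not well above background on any array.

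Other motifs were searched on both strands, with the share of all windows that hold each given first. These were the CCAAT box (CCAAT, 37.4% of windows, 1 of the 11 windows of the 8 genes), the TATA box (TATAAA, 13.6%, 1 window), the E box (CACGTG, 7.15%, 2 windows) and the ETS element (CCGGAAG, 8.86%, 2 windows). The interferon-stimulated element (3.44%) and the gamma-activated element (TTCNNNGAA, 8.3%) were in 1 window each, and the core of the cAMP response element (TGACG, 20.8%), which lies within the whole element, was in 2. The whole cAMP response element (TGACGTCA, 1.79%), the AP-1 element (TGANTCA, 7.81%) and the E2F element (TTTCCCGC, 1.07%) were in 0 windows. A match describes the letters and not a bound site.

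Signals are given as log2 intensity relative to the 75th percentile of the array, so that a value of 0 is that percentile, and each difference is the mean of the arrays labelled KO minus that of the arrays labelled HZ. The 75th percentile lay between 882 and 1024 intensity units, the share of the 56605 probes well above background was 59.5% to 63.8% per array, and 0 spots were saturated. HZ replicate 4 stood apart, with 458 non-uniform spots, where the other arrays had 2 to 25, and a median level over all probes of -3.69 against -4.27 to -4.18. The groups overlapped at the Lpcat1 probe, with a difference of -0.04 (SE 0.11, limma adjusted p = 0.930), and whether it lies within the deleted part is not known here, so directions refer to the labels. Rod markers were well above background on all 8 arrays for 13 of 13 genes. Their summed linear signal was 947 to 1199 times the 75th percentile in HZ and 908 to 1034 in KO.

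Of the 8 genes, 6 were well above background on enough arrays to be tested, and the reported probe of each had a higher mean on the arrays labelled KO. The median difference of the 6 was 0.20, against 0.0023 over all 34281 tested probes, of which 50.5% were higher in KO. With limma, 0 of the 6 genes and 0% of all probes had both a fold over 1.2 and an adjusted p under 0.05, and the smallest adjusted p of any probe was 0.157. The methods' t-test called 0 of the 6 as well. When the adjusted p could reach 0.5, 1 gene, Xiap, was called, along with 2.68% of all probes (1.39% with KO higher). At an unadjusted p under 0.05, limma took in Xiap and Parp1, 2 of 6, against 8.17% of all probes, 4.69% with KO higher. The same 2 genes had groups of arrays that did not overlap, as did 6.33% of all probes, 4.2% with KO higher. As in any bulk sample, more cells of a type and more RNA per cell cannot be told apart.

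**Figure D1:**
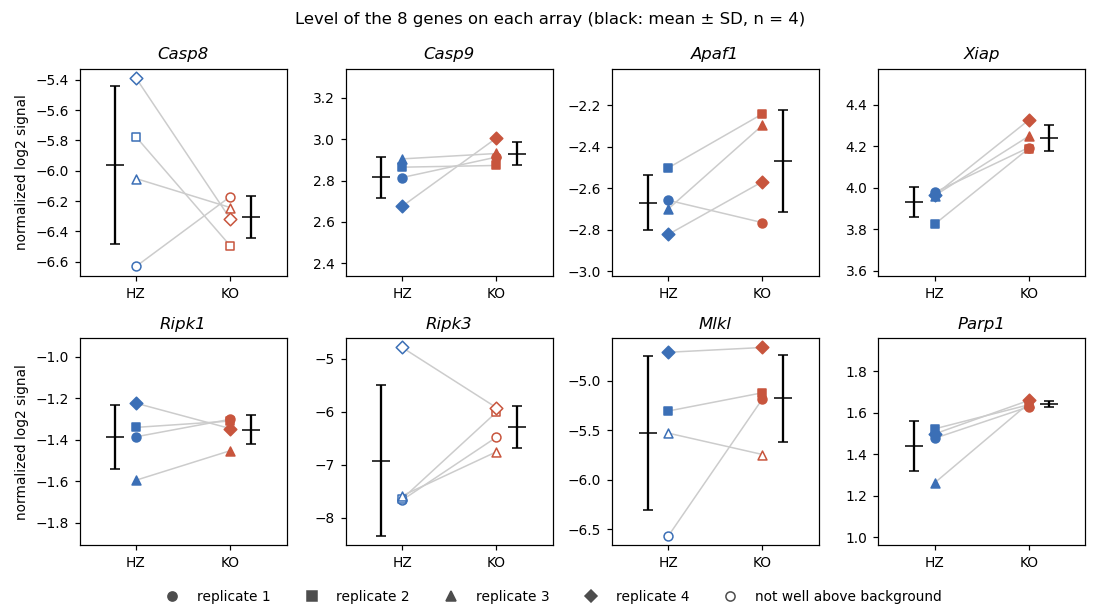
Normalized log2 signal of the reported probe of each of the 8 genes on each array (y axis, log2 relative to the array's 75th percentile, with a scale of its own in each panel), for the 4 HZ and the 4 KO arrays, with the mean and SD of each group. The KO arrays lie above all HZ arrays for Xiap and Parp1, and the groups overlap for the other genes.

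Xiap, the inhibitor of caspases, was higher on the arrays labelled KO at the looser threshold. The reported probe read 3.98, 3.82, 3.96 and 3.96 on HZ replicates 1 to 4 and 4.19, 4.19, 4.25 and 4.33 on KO replicates 1 to 4. Every KO array lay above every HZ array, and HZ replicate 2 was the lowest of the 8. The mean was 3.93 ± 0.072 in HZ and 4.24 ± 0.064 in KO (SD, n = 4 each), a difference of 0.31 (SE 0.079, 95% interval 0.13 to 0.49), or 1.24-fold, with a limma adjusted p of 0.425. A two-sided exact permutation test of this single probe gave p = 0.0286, the smallest that unrestricted reassignment of 4 against 4 arrays allows. Any probe whose groups do not overlap gives this value, so it only restates the lack of overlap. Over 4 pairs of replicate numbers no two-sided exact test could go below 0.125. Within replicate numbers 1 to 4 the difference was 0.22, 0.37, 0.29 and 0.36, higher in KO in 4 of 4 pairs.

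The other Xiap probe went the same way with more spread. It read -1.45, -1.35, -1.34 and -1.20 on the HZ arrays and -1.22, -1.27, -1.03 and -0.65 on the KO arrays, where KO replicates 1 and 2 fell within the HZ range. Its difference was 0.29 (SE 0.15, limma adjusted p = 0.642), with KO higher in 4 of 4 pairs. Bright probes as a whole leaned toward KO on these arrays. Of 1368 probes within 0.5 log2 units of the level of the reported Xiap probe, 72.1% were higher in KO, with a median difference of 0.07. Among them, 8.11% had KO arrays all above HZ arrays, and 3.65% had a difference at least as high as that of Xiap. The looser call of Xiap was lost with quantile normalization (difference 0.24, adjusted p = 0.608) and with normexp background correction (0.16, adjusted p = 0.534), and over all settings tried the adjusted p in limma or the methods' t-test ranged from 0.221 to 0.872. Leaving out any one array other than HZ replicate 2 also took the adjusted p over 0.5. The lowest such value was 0.509, without HZ replicate 4, and the highest 0.802, without HZ replicate 3. In those fits the Xiap difference was 0.28 to 0.32 and its unadjusted limma p 0.0075 to 0.0135. Of all tested probes, 0 to 492 passed the looser thresholds in those fits, against 920 in the main fit.

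The tested genes whose profile over the 8 arrays was most like that of Xiap, among 21920 named probes, were Nup98, a nuclear pore protein, Nemp1, a protein of the nuclear envelope, and Creb1, a cAMP-responsive transcription factor. The root mean square distance of their centred log2 values from those of Xiap was 0.039, 0.042 and 0.042. Their differences were 0.26, 0.24 and 0.27 on the log2 scale. Values near that of Xiap follow from the choice, because the profile compared includes the step from HZ to KO.

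**Figure D2:**
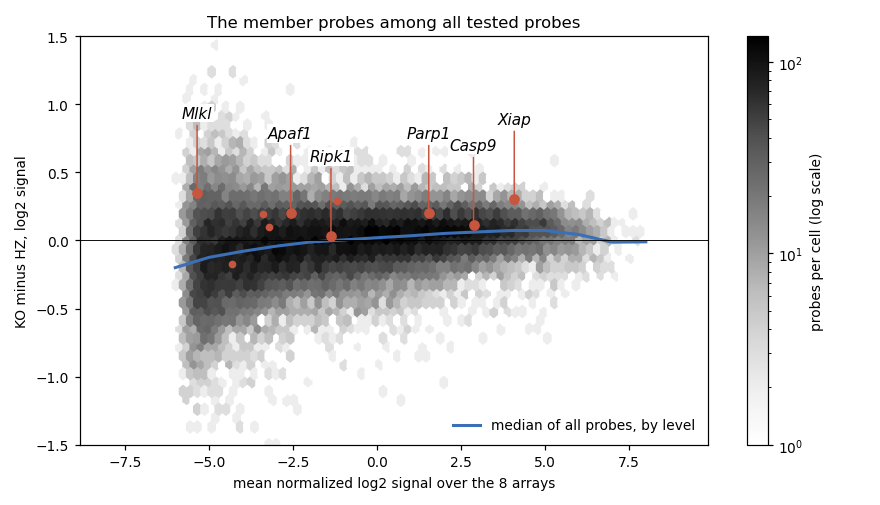
Difference between KO and HZ (y axis, log2) against mean normalized log2 signal over the 8 arrays (x axis) for all tested probes, shaded by the number of probes per cell on a log scale, with differences from -1.5 to 1.5 shown. Red points are the 10 tested probes of the genes, large and named for the reported probe, and the blue line is the median of all probes by level, which is above 0 at the level of Xiap (0.07 within 0.5 log2 units of it) and below 0 at that of Mlkl (-0.14).

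Caspase-9 and Apaf1, the components of the apoptosome, did not pass either threshold. The reported Casp9 probe read 2.81, 2.86, 2.90 and 2.68 on HZ replicates 1 to 4 and 2.91, 2.87, 2.93 and 3.00 on KO replicates 1 to 4. The groups overlapped, because KO replicate 2 was below HZ replicate 3. The difference was 0.12 (SE 0.083, 95% interval -0.08 to 0.31, limma adjusted p = 0.727), and it was above 0 in 4 of 4 pairs, at 0.10, 0.0083, 0.026 and 0.33. With normexp background correction the Casp9 difference was 0.34 and the limma adjusted p 0.167, which passed the looser threshold. Without HZ replicate 4 it was 0.07, and without both arrays of replicate number 4 it was 0.04. The other Casp9 probe read -3.67, -3.62, -3.68 and -3.02 in HZ and -3.38, -3.27, -3.20 and -3.35 in KO. HZ replicate 4 was the highest of its 8 values, while the other HZ arrays were below all KO arrays, and its difference was 0.20 (SE 0.16, limma adjusted p = 0.746).

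The 2 probes of Apaf1, which forms the scaffold of the apoptosome, went opposite ways. The reported probe read -2.66, -2.50, -2.70 and -2.82 on the HZ arrays and -2.77, -2.24, -2.30 and -2.57 on the KO arrays. KO replicates 2 and 3 were the highest, and KO replicates 1 and 4 were within the HZ range. Its difference was 0.20 (SE 0.14, limma adjusted p = 0.714), with KO higher in 3 of 4 pairs. The other probe read -4.30, -4.33, -4.16 and -4.11 in HZ and -4.41, -4.66, -4.06 and -4.47 in KO. Here 3 of the KO arrays were below all HZ arrays and KO replicate 3 was above them, with a difference of -0.17 (SE 0.13, limma adjusted p = 0.743). Without KO replicate 2 the difference of the reported probe was 0.13, and without KO replicate 1 it was 0.30 (limma adjusted p = 0.683). The mean over the 2 probes differed by 0.016.

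Casp8, the initiator caspase of the death receptor route, was not well above background on any of the 8 arrays and was not tested. Its probe read -6.63, -5.78, -6.05 and -5.39 on HZ replicates 1 to 4 and -6.17, -6.49, -6.24 and -6.32 on KO replicates 1 to 4. The KO values lay within the HZ range, and no fold is given between levels neither of which was well above background. At this signal a difference in Casp8 was not detectable.

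Of the necroptosis genes, Ripk1 was measured on every array, Mlkl on some and Ripk3 on none. The reported probe of Ripk1, the kinase that receives the death receptor signal, read -1.39, -1.34, -1.59 and -1.22 in HZ and -1.30, -1.31, -1.45 and -1.35 in KO. All 4 KO values fell within the HZ range. The difference was 0.03 (SE 0.099, 95% interval -0.19 to 0.26, limma adjusted p = 0.930), and it was -0.036 without HZ replicate 3. The other Ripk1 probe read -3.27, -3.09, -3.41 and -3.33 in HZ and -3.20, -3.36, -3.29 and -2.85 in KO, with KO replicate 4 the highest. It differed by 0.10 (SE 0.13, limma adjusted p = 0.841).

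Ripk3, the kinase that acts on Mlkl, was not well above background on any array and was not tested. Its probe read -7.66, -7.64, -7.58 and -4.79 in HZ and -6.48, -6.01, -6.75 and -5.92 in KO. HZ replicate 4 was the highest of the 8, and the other 3 HZ arrays were the lowest. The lower quartile of all probes was -5.79 on HZ replicate 4, against -7.25 to -6.65 on the other arrays.

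Mlkl, the effector of necroptosis, was well above background on HZ replicates 2 and 4 and on KO replicates 1, 2 and 4. The values were -6.57, -5.30, -5.53 and -4.71 in HZ and -5.18, -5.12, -5.74 and -4.66 in KO. The groups overlapped, with HZ replicate 1 the lowest and replicate 4 the highest array of each group. The difference was 0.35 (SE 0.39, 95% interval -0.54 to 1.25, limma adjusted p = 0.806). Within replicate numbers 1 to 4 it was 1.39, 0.18, -0.22 and 0.05, so replicate 1 gave most of it. Leaving out HZ replicate 1 brought the Mlkl difference to 0.0040, and leaving out HZ replicate 4 to 0.62. It was 0.54 without KO replicate 3 and 0.18 without KO replicate 4.

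Parp1, the DNA repair enzyme, had groups that did not overlap but did not pass either threshold. The probe read 1.48, 1.52, 1.26 and 1.5 on HZ replicates 1 to 4 and 1.63, 1.64, 1.64 and 1.66 on KO replicates 1 to 4. The KO arrays were closely grouped above all HZ arrays, and HZ replicate 3 was the lowest. The mean was 1.44 ± 0.12 in HZ and 1.64 ± 0.013 in KO (SD, n = 4 each), a difference of 0.20 (SE 0.085, 95% interval 0.0083 to 0.40, limma adjusted p = 0.597). The two-sided exact permutation p was 0.0286, again the smallest for unrestricted reassignment (0.125 over pairs), and KO was higher in 4 of 4 pairs, by 0.15, 0.12, 0.38 and 0.16. Of 2934 probes within 0.5 log2 units of its level, 61.2% were higher in KO and 12.1% had a difference at least as high. The Parp1 difference was 0.14 without HZ replicate 3 and 0.05 with normexp background correction. Its unadjusted limma p went over 0.05 without HZ replicate 1 (0.0671), without HZ replicate 3 (0.113) and without any one KO array (0.0749 to 0.0820). With the replicate number as a block, the unadjusted limma p for Parp1 went from 0.0429 to 0.0565 (adjusted p = 0.429).

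**Figure D3:**
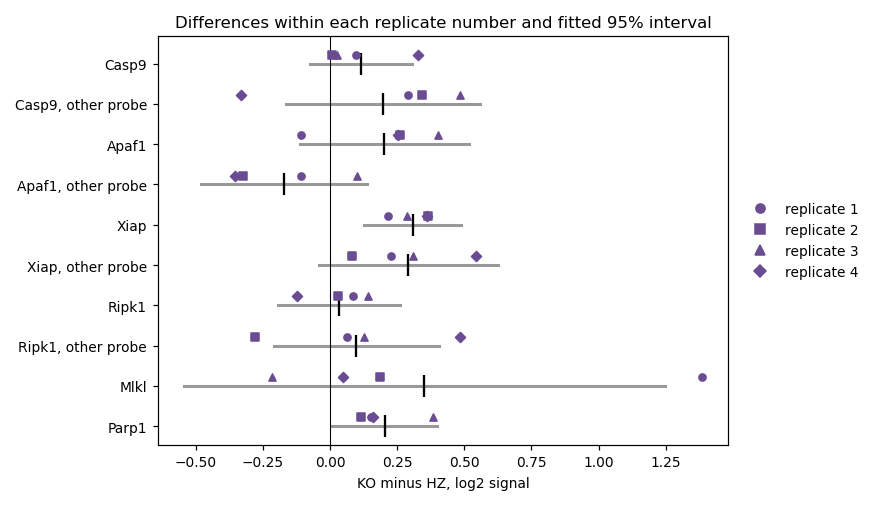
KO minus HZ difference in normalized log2 signal (x axis) within each replicate number (symbols) for the 10 tested probes, with the fitted difference (black tick) and its 95% interval (grey bar). All 4 symbols lie above 0 for both Xiap probes, Parp1 and the reported Casp9 probe, and the symbols of Mlkl run from -0.22 to 1.39.

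**Figure D4:**
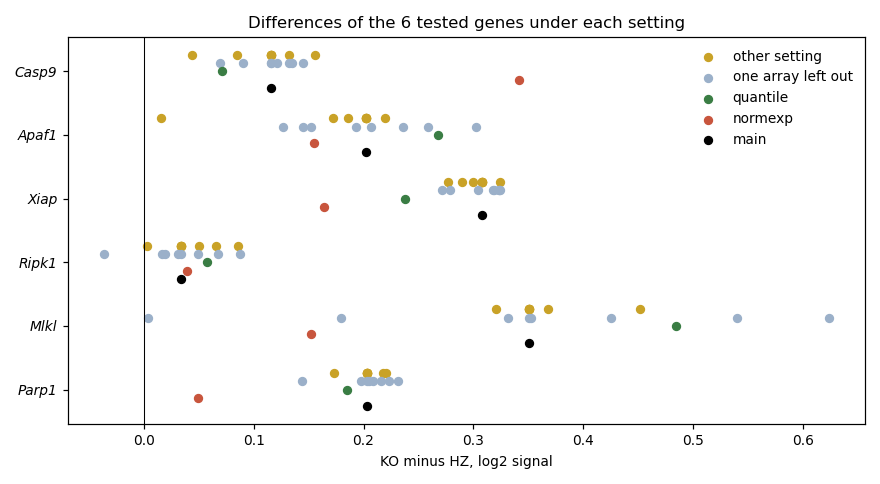
KO minus HZ difference in log2 signal of the 6 tested genes under each processing alternative and with each array left out. Values are for the reported probe, except in the alternative that takes the mean of a gene's tested probes. The Xiap values stay between 0.16 and 0.32, those of Mlkl run from 0.0040 to 0.62, and Ripk1 has a value below 0, at -0.036.

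Other genes of the same pathways were described by count in 6 lists, in each of which the number of genes past the stricter thresholds was 0. Among mitochondrial death factors and the caspase-activated nuclease, 4 genes were higher and 4 lower, with a median of 0.02 (-0.02 with quantile normalization, -0.05 with normexp). Dffa, the inhibitor of the nuclease that cuts DNA in apoptosis, had groups that did not overlap and a difference of 0.24 (SE 0.090, limma adjusted p = 0.571). Cycs, which encodes the cytochrome c that binds Apaf1, differed by 0.09 (SE 0.082, limma adjusted p = 0.765). Of 5 other death inhibitors tested, 3 were higher and 2 lower, with a median of 0.10, which fell to -0.00082 without HZ replicate 2. Cflar, which holds caspase-8 in check, read 1.36, 1.28, 1.31 and 1.1 in HZ and 1.41, 1.59, 1.46 and 1.72 in KO. Its groups did not overlap, with a difference of 0.28 (SE 0.10, limma adjusted p = 0.545). Naip5 differed by -0.18 (SE 0.13, limma adjusted p = 0.718). It belongs to a family of closely related genes, and whether its probe also reads the others was not tested. The probes of the other listed Naip genes were well above background on at most 1 HZ array and on 0 KO arrays.

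Of 10 tested death receptors, ligands and adaptors, 4 were higher and 6 lower, with a median of -0.03 (0.0078 with quantile normalization and 0.05 without HZ replicate 2). The death receptors Tnfrsf10b and Tnfrsf21 differed by -0.20 (SE 0.13) and -0.22 (SE 0.22), with limma adjusted p of 0.696 and 0.786.

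Necroptosis sensors and regulators had 16 of 19 genes tested, 13 higher and 3 lower in KO, with a median of 0.16. With normexp background correction the median was 0.02 and 8 of 16 were higher. At an unadjusted limma p under 0.05, 4 of 16 genes were higher and 0 lower, beside 4.69% and 8.17% of all probes called higher and in either direction. The count was 2 with normexp and with no filter, 2 without HZ replicate 3 or KO replicate 1, and 2 without both arrays of replicate number 4. These were Tab2, an adaptor of the kinase Tak1, Rbck1, a subunit of the ligase that puts linear ubiquitin on Ripk1, and, named after their values were seen, Peli1, a ubiquitin ligase, and Itpk1, an inositol phosphate kinase. Rbck1 read 3.22, 3.25, 3.06 and 3.24 in HZ and 3.54, 3.42, 3.39 and 3.52 in KO, with no overlap. The Rbck1 difference of 0.27 (SE 0.084, limma adjusted p = 0.483) passed the looser threshold, as the only gene of the 6 lists to do so. Under quantile normalization, or with any one array other than HZ replicate 2 left out, 0 genes of the necroptosis list passed it. Tab2, with 3.94, 3.99, 4.00 and 3.82 in HZ and 4.16, 4.26, 4.17 and 4.22 in KO, differed by 0.26 (SE 0.079, limma adjusted p = 0.480), just under a fold of 1.2. It was about as bright as the reported Xiap probe. Of the 1368 probes near that level, 72.1% were higher in KO and 9.80% had an unadjusted limma p under 0.05 in either direction. The counts of this list were not compared with probes of like brightness.

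In poly(ADP-ribose) metabolism and NAD, 13 of 13 genes were tested, of which 10 were higher and 3 lower, with a median of 0.10 (0.06 without HZ replicate 3, 0.05 without both arrays of replicate number 4). Parp2, the closest relative of Parp1 in DNA repair, had groups that did not overlap and a difference of 0.25 (SE 0.098, limma adjusted p = 0.585). Rnf146, a ubiquitin ligase that reads poly(ADP-ribose), differed by 0.17 (SE 0.10, limma adjusted p = 0.693). In the inflammasome and pyroptosis list 3 of 6 genes were tested, 1 higher and 2 lower, with a median of -0.15 (-0.03 with quantile normalization and -0.04 with normexp). This median was -0.05 and -0.07 when HZ replicates 2 and 4 were left out in turn, and -0.10 and -0.23 for KO replicates 1 and 4. Il18, an inflammasome cytokine, and Gsdmd, the pore former of pyroptosis, differed by -0.15 (SE 0.12) and -0.20 (SE 0.33), with limma adjusted p of 0.759 and 0.868.

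**Figure D5:**
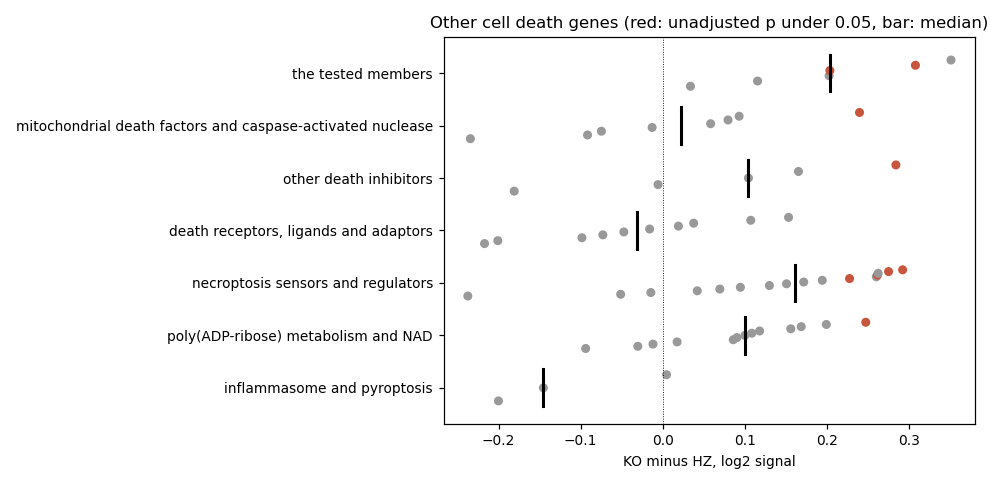
KO minus HZ difference in log2 signal of the 6 tested genes and of every tested gene of the 6 lists of other death genes, with the median of each. The medians run from -0.15 for the inflammasome list to 0.20 for the 6 genes.

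Markers of some other cells had larger median differences between the groups than the death genes. All 12 tested RPE markers were lower in KO, with a median of -1.68 and a summed level, relative to the 75th percentile, of 15.5 to 42.4 in HZ and 7.80 to 14.8 in KO. Of these, 9 passed the looser threshold, but 0 did without HZ replicate 1, HZ replicate 3, KO replicate 2, KO replicate 3 or KO replicate 4, 3 without HZ replicate 4 and 6 without KO replicate 1. In each of these fits without a single array where 0 RPE markers passed, only 0 to 10 of all tested probes passed. In those fits all 12 RPE markers were still lower in KO, with a median of -1.78 to -1.39. Of the 12, 10 had an unadjusted limma p under 0.05 in each of them. Without both arrays of replicate number 4, 0 RPE markers passed, the median was -1.37 and 7 had an unadjusted limma p under 0.05. The 3 tested erythroid markers, which are globin genes, were higher in KO, with a median of 1.58, summed levels of 0.205 to 0.583 in HZ and 0.314 to 2.12 in KO, and 0 past the looser threshold.

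Of 17 tested microglia and macrophage markers 16 were higher in KO, with a median of 0.75 and summed levels of 7.25 to 12.3 and 8.54 to 13.6. The number past the looser threshold was 1, against 12 without HZ replicate 4 and 11 without HZ replicate 2. It was 11 with the replicate block, 9 with normexp and 0 without any other one array. Of all 34281 tested probes, 920 passed in the main fit. That count was 492 without HZ replicate 4, 7892 without HZ replicate 2, 5135 with the block and 2096 with normexp. In the microglia and macrophage list, P2ry12 was well above background on 2 arrays of each group. Tmem119 was so on 1 HZ and 3 KO arrays. Ptprc was so on 0 HZ and 3 KO arrays and was not tested. Rod markers had a median of -0.13 with 11 of 13 lower (-0.08 without HZ replicate 4 or KO replicate 3). Cone markers had a median of 0.24 with 9 of 10 higher, but -0.0058 with 5 of 10 higher without HZ replicate 1, 0.10 without HZ replicate 4 and -0.04 without both arrays of replicate number 4. The cone median was 0.42 and 0.48 when HZ replicates 2 and 3 were left out in turn, and 0.15 and 0.12 for KO replicates 2 and 4. Medians of -0.35 for bipolar, -0.27 for Muller glia and 0.47 for endothelial markers rested on 8, 9 and 5 tested genes. Without HZ replicate 2 the bipolar and Muller glia medians were 0.0020 and 0.09. Of the 5 endothelial markers, 3 were higher in KO. The endothelial median was -0.0054 over the 3 genes well above background on all 8 arrays. The part of these shifts in the values of Xiap, Parp1 and the other death genes was not tested.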

How the data were processed

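The 8 arrays, 4 labelled HZ and 4 labelled KO, were grouped by their labels. The authors deposited spot intensities that Agilent Feature Extraction 10.7.1.1 had background-subtracted and flagged, and also log2 values that GeneSpring had normalized by a 75 percentile shift. The latter, used as an alternative, were centred on the median of each probe. From the intensities, log2 signal minus the 75th percentile of the 59305 non-control spots of the array was computed, spots marked as outliers were dropped, and replicate spots were averaged. Testing was limited to probes with signal well above background on 4 or more arrays and 3 or more values a group. Two-sided tests used limma 3.58.1 (lmFit, eBayes) under R 4.3.3, with files read by the R package data.table, version 1.17.8, and Benjamini-Hochberg adjustment over all tested probes. Calls required a fold over 1.2 and an adjusted p under 0.05 or, more loosely, 0.5. The methods give these thresholds, and a fold of 1.5, as alternatives. The probe with the highest mean over the 8 arrays stands for a gene. Names came from RefSeq accessions in a GRCm38.p6 table, matching 32994 of 56605 probes. The script for the test was tested on simulated data.

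Named are the 8 genes, Lpcat1, the 2 genes of each list with the smallest unadjusted p, those past the looser threshold, and the 3 genes most like the member with the smallest p. Some genes that this rule or the lists take in are not reported here. The genes and lists were chosen with earlier results of these data known. Deviations of same-numbered arrays from their group means correlated at r of 0.165 to 0.337, over 0.1 in 4 of 4 pairs, and those of different numbers at -0.339 to 0.119, so the replicate numbers, also the slide column, pair the arrays. The main fit used genotype only, so its SE, intervals and p-values leave this pairing out. As alternatives, the arrays were quantile normalized, corrected by normexp (offset 50, median spot signals) or scaled to another percentile, the filter was removed or made stricter, and the fit was replaced by the methods' t-test, by eBayes with trend and robust, by one with the replicate block, by the authors' values, by the mean of a gene's probes, or by fits with each array left out. Leaving out both arrays of replicate number 4 was chosen after seeing the data. Plots were drawn with matplotlib 3.10.9.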

Additional observations from a re-analysis of the deposited data

Results flagged for a closer look

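In 3 of 24 groups of 4 arrays, where chance gives 1.2, an array lay far from the rest. The reported Xiap probe read 3.82 on HZ replicate 2, against 3.96 to 3.98 on the other HZ arrays. The other Casp9 probe read -3.02 on HZ replicate 4, against -3.68 to -3.62. The Ripk3 probe, not well above background on any array, read -4.79 on HZ replicate 4, against -7.66 to -7.58.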

How the results depend on the processing

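Over the 19 alternatives, Casp9, Apaf1, Xiap and Parp1 kept a higher mean in KO, as did Mlkl in 18 (it had no value under the stricter filter), while Ripk1 turned to -0.036 without HZ replicate 3 (range with an array left out -0.036 to 0.088). The count of the 8 genes past the stricter thresholds was 0 throughout. The count past the looser ones, 1 for Xiap, was 0 with quantile normalization, with no filter and without both arrays of replicate number 4, and 0 to 1 with an array left out, while the 1 under normexp was Casp9. The count at an unadjusted limma p under 0.05, 2, was 1 with quantile normalization, normexp, the other percentile, no filter, the replicate block and both arrays of replicate number 4 left out, and 1 to 2 with an array left out. The median of the tested genes was 0.16 to 0.26 with an array left out, the highest without KO replicate 1. The median of the necroptosis list was 0.021 with normexp. With the replicate block, the Xiap difference was 0.31 (limma adjusted p = 0.351). The limma adjusted p of Casp9, Apaf1, Ripk1 and Mlkl was then 0.592, 0.490, 0.865 and 0.610. The block changed no call of the 8 genes at either threshold, while the unadjusted limma p of Parp1, which was not called, went over 0.05. Of all probes, 920 passed the looser thresholds, against 2096 with normexp, 1603 with trend and robust eBayes, 41 with no filter, 5135 with the block, 7892 without HZ replicate 2, 492 without HZ replicate 4, 267 without KO replicate 1, 10 without KO replicate 2, 1 without HZ replicate 1 and 0 when HZ replicate 3, KO replicate 3, KO replicate 4 or both arrays of number 4 were left out. The stricter thresholds took in 0 probes, against 17 with normexp, 3 with trend and robust eBayes and 2 each with quantile normalization and the t-test. Casp8 and Ripk3 were limited by signal over background and have no test except without a filter. The cause of these changes was not tested.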
